A study of Drosophila melanogaster with 20 samples.

Results

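The comparison was between wing imaginal discs of Drosophila melanogaster that carried EGFR together with an RNAi transgene against psq (EGFR+psqRNAi, group EP_Ctrl) and discs that carried EGFR alone (group E_Ctrl). Both groups were taken at 12 hr, which the labels place before tumours formed, and there were 4 arrays in each, so that 8 of the 20 arrays of the series entered the comparison. The groups were chosen by their labels and not by any measured value. EGFR is the name the labels give, and both groups carried it, so that every difference below is between discs with the same first transgene. The remaining arrays were of the same genotypes at day 4 (groups E_EHT and EP_EHT, labelled early hyperplastic tumours) and of EGFR+psqRNAi at day 11 (EP_LNT, late neoplastic tumours). Each sample was total RNA from about 20 pairs of discs, and the titles call the replicates biological. The labels used here name neither the driver of the transgenes, nor the parent stocks, the sex or age of the larvae, or the moment from which the 12 hr were counted. Without the stocks, psqRNAi and any other genetic difference between the groups cannot be told apart.

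The wing imaginal disc is the larval epithelium that gives rise to the adult wing and part of the thorax. The EGF receptor drives growth, survival and patterning of this epithelium through Ras and the MAP kinase cascade, with transcription factors such as Pnt and Aop at its end. The gene pipsqueak (psq) encodes a BTB-domain protein that binds DNA with GAGA repeats and takes part in silencing by Polycomb group proteins. Combined gain of EGFR and loss of psq is a fly model of epithelial tumours.

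Gene expression was measured on Affymetrix arrays, 1 per sample. The values were log2 expression levels made by RMA, on which a difference of 1 is a 2-fold change, for 13402 genes with 1 probe set each. Markers of wing disc regions (25 measured, such as vg, nub and ap) had mean levels of 9.44 to 9.67 over the 4 EP_Ctrl arrays and 9.45 to 9.56 over the 4 E_Ctrl arrays. None passed the test between groups, which 2.43% of all genes passed. Markers of the larval salivary gland varied strongly within both groups, with mean levels of 13 markers from 7.46 to 10.99 in E_Ctrl and from 7.47 to 10.74 in EP_Ctrl. Markers of differentiated muscle (18 measured) reached 8.87 on EP_Ctrl replicate 4, against 7.48 or more on the other EP_Ctrl arrays and 7.66 to 7.92 in E_Ctrl. The same array lay farthest out on the axis of the largest spread among the 8 arrays (first principal component, 28.9% of the variance), at 29.34 against a range of -16.28 to -4.13 in E_Ctrl. In RNA from whole discs, fewer cells of a type and less RNA per cell cannot be told apart.

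The transcript of psq itself was examined first. Its level was 10.93, 10.89, 10.81 and 10.84 on E_Ctrl replicates 1 to 4, and 10.87, 10.62, 10.70 and 10.93 on EP_Ctrl replicates 1 to 4. The groups overlapped, and the difference of -0.09 ± 0.09 (SE, log2; n = 4 and 4) did not pass the test (limma adjusted p = 0.675). Where the probes lie relative to the part of psq that the RNAi targets is not known, and the probes read whole discs, so the value is no check of the knockdown. At day 4 the same probe set was lower with psqRNAi by 0.45 on the log2 scale (difference -0.45, limma adjusted p = 0.0163). Egfr stood at 12.55, 12.47, 12.55 and 12.38 in E_Ctrl and at 12.57, 12.59, 12.74 and 12.37 in EP_Ctrl. Its groups overlapped as well (difference 0.08 ± 0.10, limma adjusted p = 0.762), so that no difference in receptor transcript was detectable between the genotypes.

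Of the 13402 genes, 325 (2.43%) passed the test at 12 hr, with an adjusted p below 0.05 in limma after Benjamini-Hochberg adjustment over all genes. The falls outnumbered the rises, with 236 genes lower in EP_Ctrl (1.76%) and 89 higher (0.664%). Most changes were small: the median size among the called genes was 0.40 on the log2 scale, and 241 of the 325 changed by less than 1.5-fold. The genes that fell were mostly well expressed, with a median level of 8.87 in E_Ctrl, while those that rose had a median level of 7.64, against 7.32 over all genes. Of the called genes, 315 had groups that did not overlap. Such separation was seen in 1566 of all genes (11.7%), with 1046 lower in EP_Ctrl (7.8%) and 520 higher (3.88%). The count of calls depended on single arrays: it was 153 without E_Ctrl replicate 4, 155 without E_Ctrl replicate 1, 214 without E_Ctrl replicate 2 and 512 without E_Ctrl replicate 3, and 186 and 208 without EP_Ctrl replicates 3 and 4. Falls were the larger share, between 64.9% and 74.8% of the calls, under every alternative that was run.

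**Figure D1:**
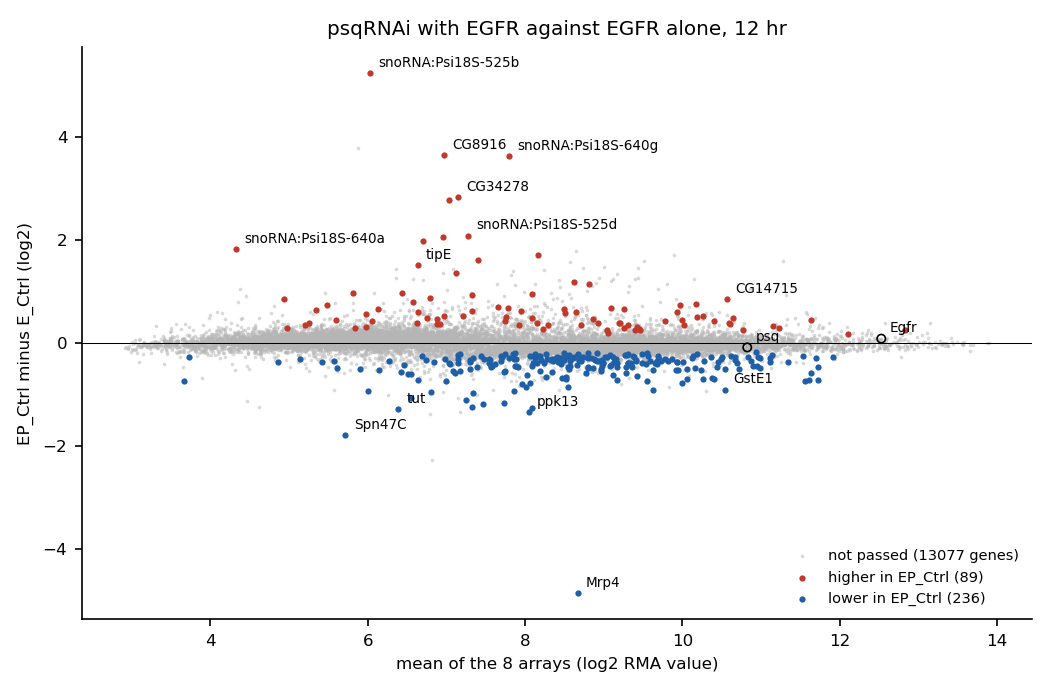
Each point is a gene, with its mean log2 RMA value over the 8 arrays on the horizontal axis and the difference EP_Ctrl minus E_Ctrl (log2) on the vertical axis. The 89 genes that passed as higher are red, the 236 that passed as lower are blue, and Mrp4 at -4.86 and snoRNA:Psi18S-525b at 5.23 stand farthest from 0. The open circles mark psq and Egfr, which did not pass.

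A 2-fold change or more was reached by 25 called genes (0.187% of those tested), of which 15 rose (0.112%) and 10 fell (0.0746%). The groups of all 25 were separated on the arrays. The fall of Mrp4 was the largest of all genes tested. Mrp4 on chromosome arm 3R encodes a membrane pump of the ABC transporter family (ABCC, or MRP, group) that exports organic anions. Its level was 11.02, 11.21, 11.26 and 10.89 in E_Ctrl and 6.04, 6.21, 6.39 and 6.32 in EP_Ctrl. All E_Ctrl arrays were far above all EP_Ctrl arrays, and within either group the arrays differed by less than 0.40. The difference was -4.86 ± 0.11 (SE, log2), a 29-fold lower level (limma adjusted p = 2.4e-14). None of the other 12 measured members of the ABCC group passed, and neither did the 5 measured genes on either side of Mrp4 on the chromosome. Of all genes, 2.43% were called, a share at which sets of this size would often hold none.

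The other large falls were of a serpin, an ion channel and an RNA-binding protein, among genes of no assigned name. Spn47C, a member of the serpin family of protease inhibitors on 2R, stood at 6.69, 6.58, 6.38 and 6.79 in E_Ctrl and at 5.06, 4.70, 4.53 and 5 in EP_Ctrl. The lowest E_Ctrl array was 1.32 above the highest EP_Ctrl array, and the difference was -1.79 ± 0.21 (limma adjusted p = 0.000113). The pickpocket gene ppk13 on 2L encodes a subunit of the DEG/ENaC family of sodium channels. Its level was 9.03, 8.69, 8.26 and 8.90 in E_Ctrl and 7.49, 7.19, 7.41 and 7.4 in EP_Ctrl. The groups did not overlap, and the level fell by 2.54-fold (difference -1.35 ± 0.18, limma adjusted p = 4e-04). None of the other 30 measured DEG/ENaC genes passed, where 2.43% of all genes were called. The gene next to ppk13, CG33509, also fell, by 1.11 on the log2 scale (difference -1.11 ± 0.22, limma adjusted p = 0.0115), although not without E_Ctrl replicate 1 or 4 (limma adjusted p = 0.0534 and 0.0544). The gene tut on 3L encodes an RNA-binding protein that acts with Bam and Bgcn in the male germ line. It stood at 7.11, 6.92, 6.86 and 7.23 in E_Ctrl and at 5.96, 5.49, 5.58 and 5.96 in EP_Ctrl, without overlap (difference -1.28 ± 0.13, limma adjusted p = 3.03e-05). Of the germ line genes listed with the piRNA pathway (23 measured), krimp was the 1 that passed (difference -0.60, limma adjusted p = 0.00733), beside 2.43% of all genes. The gene krimp encodes a Tudor-domain protein of that pathway. Falls of 2-fold or more were also found for sordd2 (-1.27), CG16704 (-1.25), snoRNA:Psi18S-525i (-1.19), CG31955 (-1.16) and snRNA:U4:38AB (-1.07), a gene for the U4 spliceosomal RNA. CG16704 did not pass when any of 6 arrays was left out, with limma adjusted p-values from 0.0505 to 0.0938.

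Among the protein-coding genes that rose, CG8916 changed most. By its sequence family it encodes a subunit of GABA-gated chloride channels. It stood at 5.18, 5.05, 5.07 and 5.33 in E_Ctrl and at 9.15, 9.19, 8.08 and 8.75 in EP_Ctrl. The lowest EP_Ctrl array, replicate 3, was still 2.76 above the highest E_Ctrl array, and the level was 12.4-fold higher (difference 3.63 ± 0.30, limma adjusted p = 3.13e-06). A second channel gene, tipE, encodes an auxiliary subunit of the voltage-gated sodium channel. Its level was 5.40, 6.30, 6.01 and 5.82 in E_Ctrl and 7.51, 7.16, 7.31 and 7.55 in EP_Ctrl, again without overlap (difference 1.5 ± 0.22, a 2.83-fold rise, limma adjusted p = 0.000964). CG12560 on 2L rose by 3.04-fold (difference 1.61 ± 0.17, limma adjusted p = 5.3e-05), from 6.25 to 6.83 in E_Ctrl to 8.05 to 8.30 in EP_Ctrl. Beside 2.43% of all genes called, none of 18 measured markers of neurons and glia passed, and 14 had positive differences. Their mean level was 6.70 to 6.79 on 3 E_Ctrl arrays and 7.26 on E_Ctrl replicate 3, and 6.85 to 7.05 in EP_Ctrl. Their part in the rise of the channel genes was not tested. The hairpin RNA gene hpRNA:CR32207, of a class that is cut into small interfering RNAs, rose by 1.35 ± 0.11 (limma adjusted p = 1.57e-06), from 6.31, 6.47, 6.34 and 6.64 to 7.96, 7.67, 7.80 and 7.74.

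Several rises were uneven among the arrays. CG34278 stood at 5.65, 5.82, 5.65 and 5.83 in E_Ctrl and at 6.65, 6.96, 10.05 and 10.62 in EP_Ctrl. EP_Ctrl replicates 3 and 4 carried most of its 7.11-fold rise (difference 2.83 ± 0.71, limma adjusted p = 0.0445), and the call was lost when either of them was left out (limma adjusted p = 0.151 and 0.128). It was lost under 13 of the 21 alternatives in all, although the difference remained between 2.15 and 3.47. The gene next to it, CG42779, stood at 3.91, 4.14, 4.05 and 3.87 in E_Ctrl and at 4.39, 7.05, 9.19 and 10.42 in EP_Ctrl, and did not pass (difference 3.77, limma adjusted p = 0.0659; it was singled out after its value was seen). The salivary gland marker ng1 stood at 10.39, 6.09, 6.03 and 6.08 in E_Ctrl and at 5.45, 6.34, 10.1 and 12.3 in EP_Ctrl. Over all 13 salivary gland markers the mean level was 7.46 to 10.99 in E_Ctrl, highest on replicate 1. In EP_Ctrl it was 7.47, 9.70, 10.74 and 10.02 on replicates 1 to 4, an order other than that of ng1 and CG34278. Muscle markers followed the same order as CG34278 over the EP_Ctrl arrays, with a mean of 7.48, 7.55, 8.01 and 8.87 on replicates 1 to 4, and 7.66 to 7.92 in E_Ctrl. The part of muscle RNA in the result was not tested. With the salivary gland markers as a covariate, CG34278 had a limma adjusted p of 0.0583. CG43176 rose from 5.65, 5.35, 6.05 and 5.57 to 8.79, 7.29, 8.51 and 9.11 (difference 2.77 ± 0.50, limma adjusted p = 0.00543), and its groups were 1.24 apart. Its call was lost with E_EHT replicate 1, an array the submitters set aside, kept in the fit (limma adjusted p = 0.0641).

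CG14664, CG7906 and lncRNA:CR33948 shared a pattern within E_Ctrl. CG14664 on 3R stood at 5.29, 6.28, 6.11 and 5.17 in E_Ctrl and at 7.03, 7.71, 8.70 and 7.31 in EP_Ctrl (difference 1.97 ± 0.28, limma adjusted p = 0.000912). CG7906 on 3L stood at 5.34, 6.72, 6.17 and 5.52 in E_Ctrl and at 7.05, 8.49, 9.18 and 7.20 in EP_Ctrl (difference 2.04 ± 0.45, limma adjusted p = 0.0226). In all 3 genes E_Ctrl replicates 2 and 3 were higher than replicates 1 and 4, the order also seen for the ecdysone response genes described below. CG7906 and lncRNA:CR33948 did not pass with the mean of the ecdysone genes as a covariate (limma adjusted p = 0.0681 and 0.0679, an alternative chosen after seeing the data), nor without E_Ctrl replicate 1 (0.0888 and 0.0897) or replicate 4 (0.0905 and 0.0965). Both were also lost with only the groups compared in the fit and without EP_Ctrl replicate 3. CG7906 was further lost without EP_Ctrl replicate 2, and lncRNA:CR33948 without EP_Ctrl replicate 4 and with E_EHT replicate 1 kept. CG14664 passed under every alternative. CG7778 rose by 1.19 ± 0.27 (limma adjusted p = 0.0244), with EP_Ctrl replicate 1 only 0.05 above the highest E_Ctrl array, and did not pass with any 1 of 5 arrays left out. The call of CG7778 was also lost with only the groups compared in the fit, with the ecdysone genes as a covariate and with E_EHT replicate 1 kept.

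**Figure D2:**
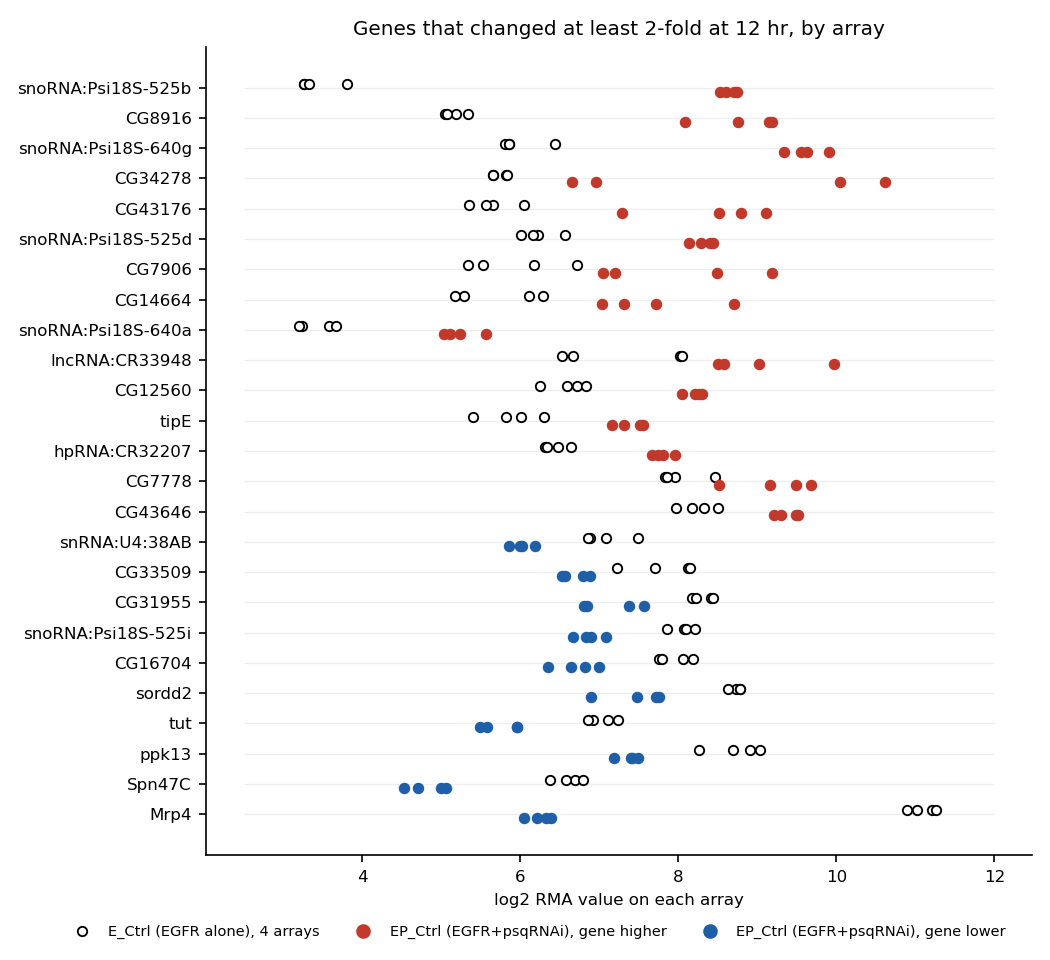
The log2 RMA value of each of the 25 genes called with a 2-fold change, on each of the 8 arrays (horizontal axis). Open circles are the 4 E_Ctrl arrays, red circles the EP_Ctrl arrays of genes that rose and blue circles those of genes that fell; Mrp4 and snoRNA:Psi18S-525b have the widest gaps (4.5 and 4.73), and CG34278 the widest spread within EP_Ctrl (3.97).

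Of the 25 genes, 5 were copies of 2 small nucleolar RNAs on chromosome arm 2L. The H/ACA snoRNAs snoRNA:Psi18S-525 and snoRNA:Psi18S-640 guide the change of uridine to pseudouridine in the RNA of the small ribosomal subunit, and RefSeq lists 18 copies, all measured. By their RefSeq positions, 17 copies lie together within the gene Arpc2, whose protein is a subunit of the actin-nucleating Arp2/3 complex, and snoRNA:Psi18S-525k lies elsewhere on the arm. The copies did not move together: 4 rose, 2 fell and 12 did not pass. The copy snoRNA:Psi18S-525b was near the lower end of the array in E_Ctrl, at 3.26, 3.8, 3.26 and 3.33, and stood at 8.74, 8.53, 8.70 and 8.60 in EP_Ctrl. Since 4.41 was the level below which the lowest 5% of genes lay, its rise was at least 18.8-fold (difference 5.23 ± 0.24, limma adjusted p = 9.01e-10). The copy snoRNA:Psi18S-640g rose from 6.44, 5.80, 5.85 and 5.85 to 9.91, 9.63, 9.55 and 9.34, which was 12.3-fold (difference 3.62 ± 0.23, limma adjusted p = 7.3e-08). The copies snoRNA:Psi18S-525d and snoRNA:Psi18S-640a rose by 2.08 ± 0.19 and 1.81 ± 0.19 (limma adjusted p = 1.07e-05 and 5.22e-05), the latter by at least 1.77-fold because it too was near the lower end in E_Ctrl.

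Neighbouring copies went in opposite directions. The copy snoRNA:Psi18S-525i stood at 8.07, 8.10, 7.85 and 8.21 in E_Ctrl and at 7.08, 6.67, 6.89 and 6.83 in EP_Ctrl, a fall of 2.28-fold (limma adjusted p = 0.00585), while snoRNA:Psi18S-640g, the next copy along the arm, rose. The copy on its other side, snoRNA:Psi18S-640f, fell by 0.74 on the log2 scale (difference -0.74, limma adjusted p = 0.00671). Other copies were level, such as snoRNA:Psi18S-640b, the brightest, at 12.78 in E_Ctrl and 12.82 in EP_Ctrl. The host gene Arpc2 did not pass (difference -0.16 ± 0.05, limma adjusted p = 0.0918). The copies are alike in sequence by their names, so that a probe set may read more than 1 of them, and which copy made a signal is uncertain.

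**Figure D3:**
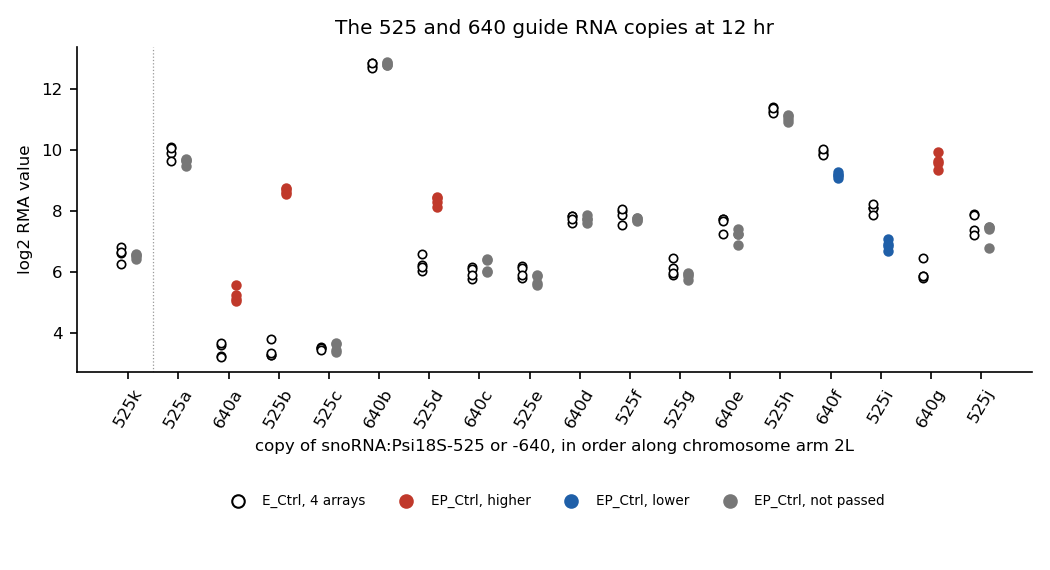
Log2 RMA value of the 18 copies of snoRNA:Psi18S-525 and snoRNA:Psi18S-640 on each of the 8 arrays, in their order along 2L; the dotted line parts snoRNA:Psi18S-525k from the 17 copies within Arpc2. Open circles are E_Ctrl, and the EP_Ctrl circles are red for the 4 copies that rose, blue for the 2 that fell and grey for the 12 that did not pass.

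Genes close to those with a 2-fold change were examined for shared changes. Of 201 genes among the 5 nearest on either side, 12 were called (5.97%), 5 higher and 7 lower, and with the 10 nearest on either side it was 17 of 383 (4.44%), against 2.43% of all genes. The difference from that share was not tested. Around hpRNA:CR32207, the second hairpin gene hpRNA:CR33940 rose by 0.66 (limma adjusted p = 0.0452), CG12519 by 0.66 (limma adjusted p = 0.0122) and CG32212 by 0.34 (limma adjusted p = 0.0452). CG43647, next to CG43646, rose from 6.86 ± 0.18 to 7.79 ± 0.18 (SD), by 0.93 on the log2 scale (limma adjusted p = 0.00051), and CG43646 itself from 8.24 to 9.38 (limma adjusted p = 0.000113). CG12942, the fifth gene to one side of Spn47C, fell by 0.59 (difference -0.59, limma adjusted p = 3.03e-05), and none of the 4 genes between them passed. Neighbours of genes that rose could also fall, such as the cuticle protein gene Cpr64Aa, the second gene from tipE (difference -0.68, limma adjusted p = 0.0104), and CG14275, the third from CG7778 (difference -0.55, limma adjusted p = 0.0122). Overlapping genes and hairpin copies cannot be told apart where their probes match more than 1 transcript. The calls of CG12519 and CG14275 were lost without E_Ctrl replicate 4 (limma adjusted p = 0.0581 and 0.0503), as was that of Cpr64Aa (limma adjusted p = 0.0503). Those of hpRNA:CR33940 and CG32212 were weaker, lost under 10 and 13 of 21 alternatives. Each of the 8 arrays ended the call of hpRNA:CR33940 when left out, and each but E_Ctrl replicate 3 that of CG32212, with limma adjusted p-values of up to 0.142 and 0.163.

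Smaller but tight changes were found in strongly expressed genes. CG14715 had 10.13, 10.12, 10.14 and 10.15 in E_Ctrl and 10.96, 11.02, 11.01 and 10.94 in EP_Ctrl. Its arrays differed by less than 0.10 within either group, and the rise was 1.80-fold (difference 0.85 ± 0.06, limma adjusted p = 2.11e-07). The magnesium transporter gene uex rose by 0.59 ± 0.06 (limma adjusted p = 1.12e-05). Fadd, which encodes an adaptor between the Imd immune pathway and the caspase Dredd, rose by 0.59 ± 0.07 (limma adjusted p = 0.000113). None of 29 other measured genes of antimicrobial immunity passed, and none of 11 of cell death, where 2.43% of all genes were called. At that share, lists of this size would often hold none. The other rises with the lowest p-values were of snoRNA:Psi28S-3305b (0.76), CG15237 (0.73), DCTN5-p25 (0.70), which encodes a dynactin subunit, asRNA:CR43767 (0.67) and CG6044 (0.44).

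On the falling side, GstE1, a glutathione S-transferase, stood at 11.10, 10.86, 10.88 and 11.13 in E_Ctrl and at 10.06, 10.10, 10.20 and 9.97 in EP_Ctrl. The groups did not overlap, and the level fell by 1.88-fold (difference -0.91 ± 0.11, limma adjusted p = 0.000113). It was the 1 member of 49 measured detoxification genes that passed, where 2.43% of all genes were called. The cytochrome P450 gene Cyp4e3 had a larger difference of -2.27 that did not pass (limma adjusted p = 0.195), with overlapping groups at 5.78, 9.33, 9.51 and 7.18 in E_Ctrl and 5.27, 5.67, 6.19 and 5.56 in EP_Ctrl. Acat2, an acetyl-CoA acetyltransferase gene, fell by 0.70 ± 0.08 on the log2 scale (difference -0.70, limma adjusted p = 0.000113), from 10.75 to 10.04. The tightest falls were of CG3253 (-0.93), CG6686 (-0.50), CG12942 (-0.59) and Qtzl (-0.74), with limma adjusted p-values from 1.12e-05 to 5.3e-05. CG9344 (-0.72), CG31457 (-0.47), CG6654 (-0.52) and CG6685 (-0.51) followed. The body colour gene yellow (y), which is also used to mark transgenes, rose from 5.02, 5, 5.15 and 5.27 to 5.88, 5.91, 5.72 and 5.86. It was the 1 of 7 measured transgene and pigment marker genes that passed (difference 0.73 ± 0.11, limma adjusted p = 0.00105), beside 2.43% of all genes. Whether a transgene carried y is not given in the labels used here.

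Most genes of cell division had small negative differences, and most did not pass the test. All 32 measured genes of DNA replication had negative differences, with a median of -0.20 against 0 over all genes, and 9 of them were lower with groups that did not overlap, as were 7.8% of all genes. Of the 32, 3 fell and 29 did not pass, where 1.76% of all genes fell. RfC38, a clamp loader subunit, went from 8.35 ± 0.07 to 7.95 ± 0.07 (SD), by -0.40 ± 0.07 (SE, limma adjusted p = 0.00342). Mcm3, a subunit of the replicative helicase, had 9.68, 9.47, 9.34 and 9.71 in E_Ctrl and 9.30, 9.09, 9.01 and 9.19 in EP_Ctrl (difference -0.40, limma adjusted p = 0.0236). RPA1, which binds single-stranded DNA, differed by -0.29 (limma adjusted p = 0.0204). Both Mcm3 and RPA1 were highest on E_Ctrl replicates 1 and 4, and neither passed without either of those arrays. The same held with only the groups compared in the fit and with the ecdysone genes as a covariate (limma adjusted p = 0.0663 and 0.0532). Mcm3 was also lost without EP_Ctrl replicate 2 or 3. RPA1 was also lost without EP_Ctrl replicate 3 and with the arrays centred on their medians. The number of replication genes called was 1 without E_Ctrl replicate 1, E_Ctrl replicate 4 or EP_Ctrl replicate 3, and 9 without E_Ctrl replicate 3.

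Of 38 measured genes of mitosis and cytokinesis, 7 fell, 1 rose and 30 did not pass, with a median difference of -0.17. Over all genes, 1.76% fell and 0.664% rose. The largest fall was of cid, the centromeric histone H3 variant, from 8.90, 8.68, 8.63 and 9.03 to 8.27, 8.09, 8.05 and 8.07. The groups did not overlap (difference -0.69 ± 0.10, limma adjusted p = 0.000912). The kinase gene aurB fell by 0.49 (difference -0.49, limma adjusted p = 0.00976), tum, whose product with a kinesin builds the central spindle, by the same amount (limma adjusted p = 0.000709), and the condensin gene SMC2 by 0.35 (difference -0.35, limma adjusted p = 0.00611). The exception was borr, named after its value was seen, which encodes a partner of Aurora B in the chromosomal passenger complex and rose by 0.34 (limma adjusted p = 0.00984). The count of called members lay between 5 and 9 with any 1 array left out, and was 5 without E_Ctrl replicate 1, 2 or 4 or EP_Ctrl replicate 3. All 13 measured genes of G1-S control also had negative differences (median -0.12), but none passed; Rbf2 (-0.32, limma adjusted p = 0.0849) and Cks85A (-0.31, limma adjusted p = 0.106) were the largest.

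Calls were uneven among the lists of protein synthesis and the mitochondrion. Of 71 mitochondrial ribosomal protein genes, 6 fell and none rose, beside 1.76% and 0.664% of all genes, and 62 had negative differences (median -0.15). The largest falls were of mRpS23 (-0.69 ± 0.10, limma adjusted p = 0.000863), mRpS6 (-0.63 ± 0.11, limma adjusted p = 0.00477) and mRpL24 (-0.53, limma adjusted p = 0.00288). The mRpS23 level was 8.86, 8.88, 8.69 and 9.05 in E_Ctrl and 8.32, 8.25, 8.11 and 8.02 in EP_Ctrl, without overlap. The count fell to 3 without E_Ctrl replicate 1 or 2 or EP_Ctrl replicate 3 or 4, and to 4 without E_Ctrl replicate 4. No cytosolic ribosomal protein gene passed among 35 (median -0.05), and none of 67 genes of the respiratory chain and ATP synthase did (median -0.06). Among 27 genes of ribosome biogenesis and Myc, Max, the dimer partner of Myc, was the 1 that passed, and it fell from 11.01, 11.03, 11.01 and 11.16 to 10.67, 10.80, 10.66 and 10.66 (difference -0.35 ± 0.06, limma adjusted p = 0.00519). Of all 214 snoRNA genes measured, 6 rose and 11 fell, and 172 had negative differences (median -0.10). Of the 6 that rose, 4 were the copies in Arpc2.

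Genes of EGFR signalling gave no calls, where 2.43% of all genes were called. At that share, lists of this size would often hold none. None of 14 measured ligands, receptors and transducers of EGFR signalling passed, with differences between -0.10 and 0.11. None of 10 feedback inhibitors and nuclear effectors passed either, and the largest differences were of aop (0.23, limma adjusted p = 0.383), a repressor relieved by the pathway, and Mkp3 (0.14, limma adjusted p = 0.465), a phosphatase that dampens it. The aop levels of 11.28, 11.24, 11.42 and 11.30 in EP_Ctrl were all above those of E_Ctrl (11.07, 11.21, 11.21 and 10.83), but by only 0.03 at the closest. Chromatin regulators of the kind psq belongs to were also nearly level. None of 12 BTB-domain and GAGA-binding factors passed, the largest being ken (-0.33, limma adjusted p = 0.102). Of 16 Polycomb group genes, escl fell by 0.21 on the log2 scale (difference -0.21, limma adjusted p = 0.048), a call lost under 15 of 21 alternatives, with every array but EP_Ctrl replicate 2 among those whose removal ended it. None of 18 Trithorax group genes and none of 7 Hox genes, the classical targets of Polycomb silencing, passed. Scr was the highest of the latter (0.33, limma adjusted p = 0.369).

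Genes of the ecdysone response, the steroid hormone cascade that times larval and pupal development, had mostly positive differences, and none passed the test. Of 26 measured, 21 had positive differences (median 0.11), and in 9 all EP_Ctrl arrays were above all E_Ctrl arrays, as they were in 3.88% of all genes. The nuclear receptor gene Hr3 stood at 6.53, 9.12, 8.18 and 7.32 in E_Ctrl and at 9.26, 9.14, 9.32 and 9.67 in EP_Ctrl (difference 1.56 ± 0.45, limma adjusted p = 0.0847). Hr4 stood at 7.02, 9.20, 9.12 and 7.75 in E_Ctrl and at 9.79, 9.64, 9.50 and 10.02 in EP_Ctrl (difference 1.46, limma adjusted p = 0.158). Both were low on E_Ctrl replicates 1 and 4 and close to the EP_Ctrl level on replicate 2, and EP_Ctrl was even. The nuclear receptor gene ftz-f1 went the other way, at 9.65, 9.16, 8.64 and 9.43 in E_Ctrl and 8.69, 8.47, 8.69 and 8.66 in EP_Ctrl, with overlap on E_Ctrl replicate 3 (difference -0.60, limma adjusted p = 0.0772). The mean level of the 26 genes was 8.97 to 9.43 in E_Ctrl and 9.41 to 9.52 in EP_Ctrl. Genes of juvenile hormone binding, response and breakdown gave no call either, with 11 of 13 differences positive (median 0.17). The part of the ecdysone genes in the other differences was not tested beyond its use as a covariate, with which 251 genes were called, 204 of them among the 325.

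Genes of the cuticle and of the cell surface gave few calls, where 0.664% of all genes rose and 1.76% fell. Of 109 cuticle protein genes, 85 had positive differences (median 0.10), none rose and 1, Cpr64Aa, fell. Of 28 genes of chitin synthesis and modification, the chitin deacetylase genes verm and serp rose. The verm level was 11.40, 11.44, 11.33 and 11.47 in E_Ctrl and 11.87, 11.77, 11.86 and 11.92 in EP_Ctrl (difference 0.45 ± 0.06, limma adjusted p = 0.000722), and serp rose by 0.28 (limma adjusted p = 0.0439), a call that ended under 12 of 21 alternatives. Both are also among the 13 measured tracheal markers, of which no other passed. Of 17 septate junction genes, crok and cold, which encode small membrane proteins needed to assemble the junction, fell by 0.32 and 0.29 (differences -0.32 and -0.29, limma adjusted p = 0.0368 and 0.0308). Each of these calls was lost under 10 of 21 alternatives. Neither passed without E_Ctrl replicate 4 or EP_Ctrl replicate 3 or 4, nor with the salivary gland markers as a covariate. Of 28 serpin genes, Spn28Dc rose by 0.19 (limma adjusted p = 0.0425), and Spn42De fell by 0.71 (difference -0.71, limma adjusted p = 0.0342) beside Spn47C. The call of Spn28Dc was lost under 13 of 21 alternatives and with any of the 8 arrays left out, and that of Spn42De under 7. The number of serpin genes called was 1 without E_Ctrl replicate 1 or 4 or EP_Ctrl replicate 2 or 4, and with the salivary gland markers as a covariate.

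Many signalling and stress lists held no call, where 2.43% of all genes were called, a share at which short lists would often hold none. No member passed in the lists of the Notch (15 measured), Wingless (8), Dpp (15), Hedgehog (13), Hippo (13), JAK/STAT (11), JNK (21) and insulin and TOR (16) pathways. The same was true of 17 genes of apico-basal polarity and adherens junctions, 21 of basement membrane and integrin adhesion, 15 of glycolysis and lactate, 28 of the proteasome and 14 aminoacyl-tRNA synthetases. Ilp8, the insulin-like hormone of damaged discs, was at 8.06, 7.57, 7.72 and 7.69 in E_Ctrl and at 8.45, 8.44, 9.43 and 7.54 in EP_Ctrl, with overlap on replicate 4 (difference 0.70, limma adjusted p = 0.195). Among cell type lists, none of 20 haemocyte, 10 fat body, 6 disc myoblast, 36 gut and 13 salivary gland markers passed.

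**Figure D4:**
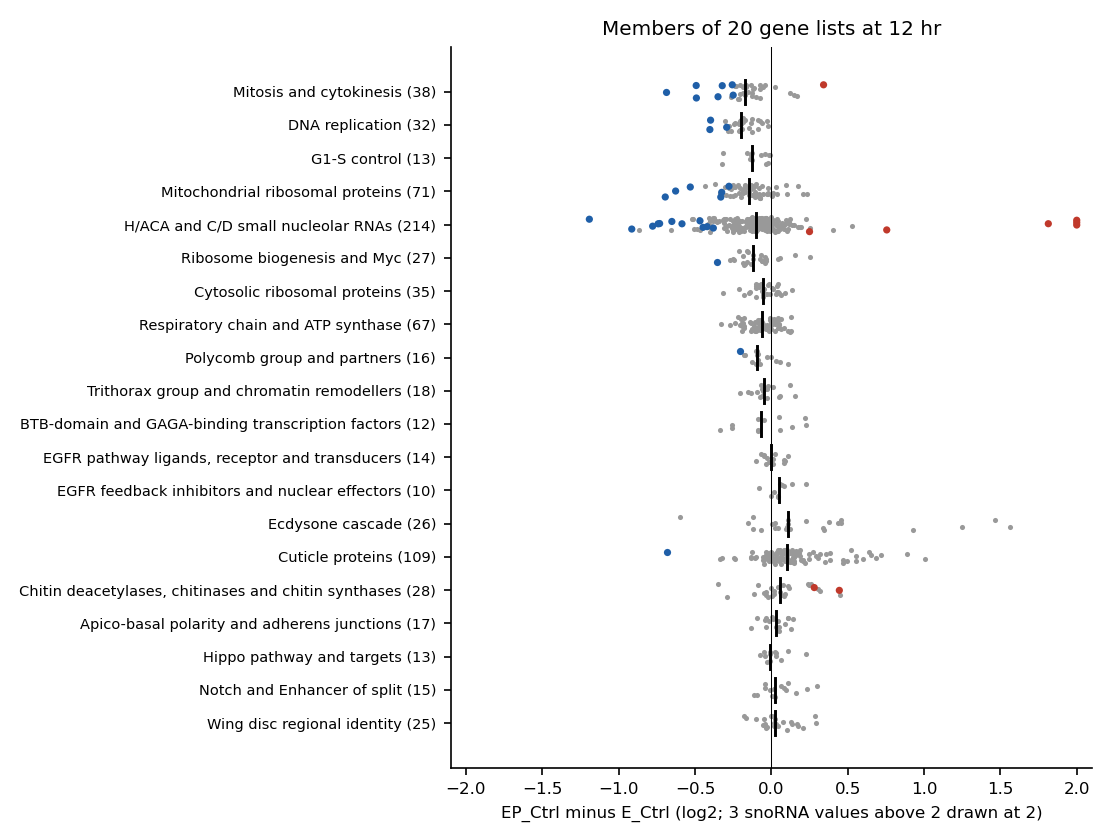
Differences EP_Ctrl minus E_Ctrl (log2, horizontal axis) of the measured members of 20 gene lists, with the number of members in brackets. Red and blue points passed as higher and lower, grey points did not pass, and the black bar is the median; all 32 replication genes lie below 0, and 3 snoRNA values above 2 are drawn at 2.

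The same genotypes at day 4 gave a repeat in other discs, since the 12 hr and day 4 comparisons share no array. The tests were not independent, because both took the spread of each gene from the same fit. There EP_EHT (n = 4) differed from E_EHT (n = 3, after the submitters set 1 array aside) in 425 genes (3.17%), with 320 higher (2.39%) and 105 lower (0.783%), so that rises were the larger share there. Of the 325 genes called at 12 hr, 94 were called at day 4 in the same direction, which is 28.9% of the 12 hr calls and 22.1% of the day 4 calls, and none was called in the opposite direction. The 94 were 48 of the 89 rises (53.9%) and 46 of the 236 falls (19.5%), shares that were not tested against each other. The median difference of the 89 was 0.50 at 12 hr and 0.43 at day 4, while that of the 236 was -0.38 at 12 hr and -0.13 at day 4. The genes were picked at 12 hr, a choice that favours larger sizes at that time. With each time fitted on its own groups, 226 genes were called at 12 hr, and 38 of them were called at day 4 in the same direction.

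Of the 25 genes with a 2-fold change, 15 passed again at day 4. Mrp4 stood at 10.86 ± 0.07 (SD, n = 3) in E_EHT and 6.18 ± 0.17 (SD, n = 4) in EP_EHT, a difference of -4.68 (limma adjusted p = 1.58e-13), and at 6.75 ± 0.21 in EP_LNT at day 11, where there is no EGFR group to set beside it. The day 4 differences of snoRNA:Psi18S-640g and CG8916 were 3.72 and 3.92, against 3.62 and 3.63 at 12 hr. That of snoRNA:Psi18S-525b was 5.61, but this copy was below 4.41 without psqRNAi at both times (3.41 in E_Ctrl and 3.27 in E_EHT), so that its sizes are not comparable. hpRNA:CR32207 differed by 2.38 at day 4 against 1.35 at 12 hr, and tut by -1.74 against -1.28. The genes that shared the pattern within E_Ctrl did not recur: CG14664 differed by 0.02 (limma adjusted p = 0.982), CG7906 by -0.52 (limma adjusted p = 0.645) and lncRNA:CR33948 by -0.36 (limma adjusted p = 0.709). CG31955 (-0.03) and snRNA:U4:38AB (-0.12) did not pass either. The replication list had a median of 0.07 at day 4 and the mitochondrial ribosomal proteins one of 0.20, opposite in sign to 12 hr. Mitosis and cytokinesis and G1-S control kept the sign of 12 hr, each with a day 4 median of -0.03.

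At day 11, EGFR+psqRNAi discs (EP_LNT, n = 4) were measured without an EGFR group, so that only levels can be given. CG8916 stood at 8.61 ± 0.81 (SD), snoRNA:Psi18S-525b at 9.93 ± 0.33 and hpRNA:CR32207 at 9.26 ± 0.19, all on the side that EP_Ctrl took at 12 hr. Spn47C did not keep to its side: it stood at 4.82 ± 0.25 in EP_Ctrl, 6.25 ± 0.27 in EP_EHT and 8.58 ± 0.53 in EP_LNT, the last above the 6.61 ± 0.17 of E_Ctrl. CG31955 was likewise at 9.54 ± 0.54 in EP_LNT, against 7.15 ± 0.38 in EP_Ctrl and 8.31 ± 0.13 in E_Ctrl.

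**Figure D5:**
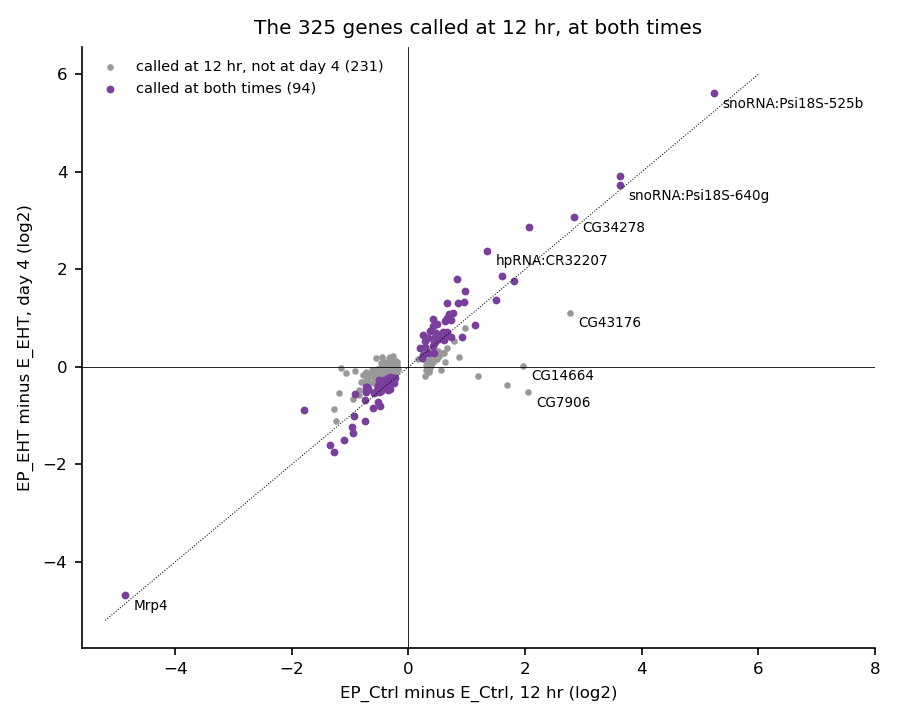
The 325 genes called at 12 hr, by their difference EP_Ctrl minus E_Ctrl at 12 hr (horizontal axis, log2) and EP_EHT minus E_EHT at day 4 (vertical axis, log2). The 94 genes called at both times are purple, with Mrp4 and snoRNA:Psi18S-525b at the ends of the dotted line of equal differences. The grey genes include CG14664, near 0 at day 4, and CG7906, below 0 at day 4.

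Whether the effect of psqRNAi differed between the times was tested directly, as the difference between both differences. No gene passed in limma (smallest adjusted p = 0.0707), while 2177 genes (16.2%) had an unadjusted p below 0.05, among them 163 of the 325. The result rested on EP_EHT replicate 4: without it, 345 genes passed, 311 of them more positive at day 4, with 43 snoRNA genes and 18 mitochondrial ribosomal protein genes among them and no gene of the replication or mitosis lists. Of the 25 genes with a 2-fold change, 3 passed in that fit. The mean of the salivary gland markers was 7.18 on EP_EHT replicate 4 and 9.89, 10.25 and 10.34 on EP_EHT replicates 1 to 3. In E_EHT it was 7.77, 6.94 and 10.89 on replicates 2 to 4. Leaving EP_EHT replicate 4 out thus removed the only EP_EHT array with a low level of these markers. The part of salivary gland RNA in the 345 calls was not tested.

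The kinds of transcript and chromosome arms of the called genes are given as a description. Protein-coding genes made up 291 of the 325, and the rest included 17 of 214 snoRNA, 6 of 311 lncRNA, 3 of 77 antisense and 2 of 3 hairpin RNA genes measured, against 2.43% of all genes. Antisense and overlapping transcripts are uncertain where probes match both. On chromosome arm 2L, 12 of 2460 genes changed by at least 2-fold, 5 of them the snoRNA copies, against 5 of 2581 on 3L, 3 of 3174 on 3R, 2 of 2683 on 2R and 2 of 2018 on the X. Rises were 1.06% of genes on 2L, 1.08% on 3L, 0.504% on 3R, 0.373% on 2R and 0.297% on the X.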

How the data were processed

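Total RNA of 20 samples was hybridised to 1-colour arrays as biotin-labelled cRNA. The log2 expression values were made by the authors with RMA, and limma is the other tool named, both without versions, per the submitters' processing notes. In its usual form RMA equalises the arrays' distributions, so a shift shared by most genes would not be seen, and it compresses differences of dim probe sets. Genome build, scanner files and detection calls are not given in the sources used here, so that no probe set could be called absent. Of 16322 probe sets, 13441 had 1 gene symbol, 555 had several and 2326 had none. The probe set with the highest mean was taken for 37 genes that had more than 1, which left 13402 genes, of which 13025 matched a position in RefSeq (Release 6 plus ISO1 MT). The array medians lay between 7.29 and 7.39, and no pair of arrays was identical.

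Group means over 19 arrays were modelled in R 4.3.3 by lmFit and eBayes of limma 3.58.1 (14 residual degrees of freedom), after E_EHT replicate 1 was left out because the series' design text sets it aside for technical problems. P-values were adjusted by Benjamini-Hochberg over all genes at 0.05, and fold changes are differences of log2 means with the SE of the fit, whose median was 0.093. The number of arrays limits the precision. The computations were tested on simulated data.

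Members and lists were chosen with earlier results of these data known, and the lists carry no test of their own. Named are psq, Egfr, called genes with a 2-fold change, the 10 rises and 10 falls with the lowest adjusted p among the others, up to 4 called members of a list or otherwise up to 2 with the largest differences, and called genes among the 5 neighbours on either side. Samples of the same replicate number did not deviate together (correlations -0.40, 0.17, -0.07 and 0), so the numbers were not taken as pairs. Alternatives covered normalization, centring, dim genes, the variance model, array weights, the arrays fitted, the probe set rule, a replicate block, covariates and each array left out. Promoter and RNA sequences were not used here.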

Additional observations from a re-analysis of the deposited data

Results flagged for a closer look

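Among the named genes and marker lists, 172 groups of 4 arrays were examined for an array far from the others, and 7 had one by Dixon's test at the 95% level. Chance alone gives about 1 in 20 groups. snoRNA:Psi18S-640g stood at 6.44 on E_Ctrl replicate 1 against 5.80 to 5.85 on the others, and snoRNA:Psi18S-525b at 3.8 on E_Ctrl replicate 2 against 3.26 to 3.33. Both copies remained well below their EP_Ctrl levels on those arrays. CG14275 was low on E_Ctrl replicate 2, at 7.24 against 7.39 to 7.42, and CG12519 was low on EP_Ctrl replicate 4, at 8.70 against 8.86 to 8.89. The centromeric histone gene cid was high on EP_Ctrl replicate 1, at 8.27 against 8.05 to 8.09, and Max on EP_Ctrl replicate 2, at 10.80 against 10.66 to 10.67, which placed both arrays nearer to the E_Ctrl group. The mean of the markers of neurons and glia was 7.26 on E_Ctrl replicate 3 against 6.70 to 6.79.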

How the results depend on the processing

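The 12 hr calls numbered 325 (89 higher, 236 lower). With E_EHT replicate 1 kept they were 206 (52 and 154), and with array weights 873 (255 and 618). With only the groups compared in the fit, 156 genes were lower. With any 1 array left out, calls lay between 153 and 512, higher genes between 47 and 145, lower genes between 106 and 367, and genes with a 2-fold change between 19 and 30. Of the genes called at 12 hr, 94 were called at day 4, which became 175 with array weights, 38 with only the groups compared and 64 to 102 with an array left out. The difference between the times gave 0 calls in limma (2177 at an unadjusted p below 0.05), 1 with E_EHT replicate 1 kept, 2 after further quantile normalization, 2 with only the groups compared, 139 with array weights and 0 to 345 with an array left out. The cause of these shifts was not tested. The replicate block gave 323 calls, 278 of them among the 325, and since the numbers did not pair the samples it is only a further setting. Of 74 named called genes, 49 passed under all settings run on them. Egfr, not called, reversed to -0.03 with the ecdysone genes as a covariate. That covariate and the fit without EP_LNT replicate 4 (340 calls) were chosen after seeing the data. The planned share of promoters with a GAGAG motif was not run, as no promoter sequences were used here. Without detection calls, low levels are only bounds.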

Other observations

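Probe sets without a usable gene symbol also differed between the groups at 12 hr. In a fit over every probe set, 366 of 16322 were called. Among the 2920 probe sets that did not stand for 1 of the 13402 genes, 50 were called. Of the 50, 45 had no symbol and 5 had several. Of these, 10 changed by at least 2-fold, 2 higher and 8 lower in EP_Ctrl. Probe set 18219351 fell from 10.65 to 7.21, 10.8-fold (difference -3.44 ± 0.10, limma adjusted p = 3.36e-13), and differed by -3.57 at day 4. Probe set 18204988 fell from 11.72 to 8.93, 6.94-fold (difference -2.79 ± 0.28, limma adjusted p = 2.56e-05), and differed by -2.09 at day 4. Probe set 18147729 rose from 7.12 to 8.71, 3.01-fold (difference 1.59 ± 0.12, limma adjusted p = 1.57e-06), and differed by 2.26 at day 4. What these probe sets measure is not given in the tables used here.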
